A study of Mus musculus with 4 samples.

Results

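Retnlg-positive tumour neutrophils were examined by single-cell RNA sequencing of CD45-enriched cells from mouse pancreatic tumours. A barcode was kept with at least 200 genes, at least 500 UMIs (unique molecular identifiers, 1 per captured transcript) and at most 10% mitochondrial UMIs. A kept barcode was gated as a neutrophil with 5 or more UMIs of S100a8 and S100a9 together, 2 or more of Csf3r, G0s2, Clec4d and Hdc together, and 0 of Cd3e, Cd79a and C1qa. Within that gate a cell was counted as Retnlg-positive with 1 or more UMIs of Retnlg, 0 of Il1a, at most 2 of the granule genes Ngp, Camp and Ltf, and at most 1 of the interferon-induced genes Rsad2, Ifit1 and Ifit3. This left 351 cells of 3467 gated neutrophils, 14855 kept barcodes and 18001 deposited barcodes. The 17 genes of this rule get no test, and not all of their levels are printed. The level of Retnlg over all gated neutrophils was tested, since the gate did not use it.

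AT38, a compound known here by its code name, was injected into the peritoneum daily at 30 mg/kg over 7 days, suspended in an aqueous solution of 1% carboxymethyl cellulose, and the vehicle mice received that solution without it. All mice were C57BL/6 and carried orthotopic B6KPC3 tumours, a pancreatic ductal adenocarcinoma (PDAC) model, that were 7 days old when dosing began. There were 2 AT38 libraries and 2 vehicle libraries, each a pool of 4 mice, so a replicate is 1 pool. The p-values of the fits rest on how far the pools differ. That spread is partly shared across the genes or cell classes fitted together. About 10000 live cells were loaded per library with 4000 targeted.

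Neutrophils are short-lived granulocytes that leave the bone marrow carrying preformed granules, adhere to vessel walls and follow chemokines through CXCR2. Retnlg encodes resistin-like gamma, a small secreted protein that marks mature mouse neutrophils of marrow and blood. In tumours, neutrophils can pass into a state marked by Siglecf, Vegfa and chemokine transcripts.

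The start-site regions of 4 genes are shown because the comparisons below turn on these genes, from 250 bases before to 50 after the RefSeq start on build GRCm38.p6, 5′ to 3′ on the gene's strand. Capitals mark the CEBP core TTNNGNAA, a motif of the C/EBP factors of granulocytes, in Retnlg, Slpi and Wfdc17, and the antioxidant response element core TGACNNNGC, the motif bound by NRF2, in Srxn1. Both strands were searched. The Retnlg window is chr16:48872358-48872657 (plus strand), the Slpi window chr2:164356458-164356757 (minus strand), the Wfdc17 window chr11:83703806-83704105 (plus strand) and the Srxn1 window chr2:152105274-152105573 (plus strand).
Retnlg: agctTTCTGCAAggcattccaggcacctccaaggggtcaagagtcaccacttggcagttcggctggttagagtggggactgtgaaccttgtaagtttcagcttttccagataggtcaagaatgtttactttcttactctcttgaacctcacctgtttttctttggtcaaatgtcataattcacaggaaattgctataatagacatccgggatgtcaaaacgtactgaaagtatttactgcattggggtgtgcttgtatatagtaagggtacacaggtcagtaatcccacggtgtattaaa
Slpi: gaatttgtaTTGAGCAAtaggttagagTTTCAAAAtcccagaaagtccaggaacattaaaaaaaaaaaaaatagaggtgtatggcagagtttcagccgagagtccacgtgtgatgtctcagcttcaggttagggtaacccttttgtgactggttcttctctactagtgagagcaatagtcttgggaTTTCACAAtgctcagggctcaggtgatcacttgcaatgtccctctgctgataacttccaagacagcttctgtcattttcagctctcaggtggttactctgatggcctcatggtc
Wfdc17: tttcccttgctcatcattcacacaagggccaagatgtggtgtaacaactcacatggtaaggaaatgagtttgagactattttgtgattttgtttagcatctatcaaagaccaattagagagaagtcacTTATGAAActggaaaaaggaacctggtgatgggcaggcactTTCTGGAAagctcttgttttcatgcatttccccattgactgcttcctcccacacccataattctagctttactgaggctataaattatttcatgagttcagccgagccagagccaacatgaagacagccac
Srxn1: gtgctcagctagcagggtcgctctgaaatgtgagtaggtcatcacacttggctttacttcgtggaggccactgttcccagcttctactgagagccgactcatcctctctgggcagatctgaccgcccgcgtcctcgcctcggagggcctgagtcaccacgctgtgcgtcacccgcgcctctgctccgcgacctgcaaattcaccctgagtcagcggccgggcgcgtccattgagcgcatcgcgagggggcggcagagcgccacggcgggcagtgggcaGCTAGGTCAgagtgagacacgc
The CEBP core began at −246 relative to the start of Retnlg, at −241, −223 and −64 for Slpi, and at −122 and −81 for Wfdc17, and 40.7% of all 32851 start-site windows held it. The antioxidant response element core began 28 bases after the start base of Srxn1, on the reverse strand, and 12.4% of the windows held it. A match describes letters only. By the GENCODE M21 annotation of GRCm38, the protein-coding gene Retnlg lies at chr16:48872621-48874496, Slpi at chr2:164354070-164389095, Wfdc17 at chr11:83703991-83706268 and Srxn1 at chr2:152105516-152111376.

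The Retnlg-positive cells numbered 60 and 64 in the AT38 libraries and 91 and 136 in the vehicle libraries. The libraries held 24294215 to 34386076 UMIs and kept 3003 to 4992 barcodes. Median UMIs per Retnlg-positive cell were 1727.5 and 1885.5 with AT38 and 2158 and 1768.5 with vehicle, below the 2237 and 2444 with AT38 and 2487 and 2115.5 with vehicle of the other gated neutrophils. Their median mitochondrial share was 0.458% and 0.393% with AT38 and 0.686% and 0.607% with vehicle, against 1.05% and 0.918% with AT38 and 0.944% and 0.981% with vehicle in the others. The part of depth and mitochondrial share in the contrasts below was not tested. The UMIs summed over the Retnlg-positive cells of a library came to 117334 and 132284 with AT38 and 248742 and 290128 with vehicle, so 2292 of 31053 genes entered the test. Of the kept barcode sequences, 17 occurred in 2 libraries, 1 of them among these cells.

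The label was checked against the markers of neutrophils. Of the 8 markers listed, S100a8, S100a9, Retnlg, Csf3r and G0s2 chose the cells and so check nothing, and Slpi, Cxcr2 and Mmp9 were not used by the rule. All 3 were detected in every library. Mmp9 stood at 852 and 832 CPM (a gene's UMIs as a proportion of all UMIs of the class in that library, on the usual CPM scale) with AT38 and 615 and 1058 CPM with vehicle, and Slpi and Cxcr2 are given below. Markers of red blood cells were at 0, and so were Ms4a1 of B cells, Siglech of plasmacytoid dendritic cells, Epx and Il5ra of eosinophils, Mcpt8, Ms4a2 and Fcer1a of basophils and mast cells, and Prss2 of acinar cells. The summed lists of other cells were low but mostly not at 0. They ran over the 4 libraries from 257 to 478 CPM for macrophages, 128 to 213 for monocytes, 22.7 to 145 for T cells, 31.0 to 64.3 for B cells, 7.56 to 20.7 for eosinophils, 3.45 to 76.7 for mast cells and basophils, 3.45 to 25.6 for acinar cells, 3.45 to 12.1 for epithelial cells and 0 to 32.2 for platelets. A few cells stood apart. Of the 351 cells, 17 held 10 or more UMIs of markers of other cell types, Cd74, H2-Aa and H2-Eb1 included (called marker cells below, a limit set after the data were seen), 1 and 2 of them in the AT38 libraries and 8 and 6 in the vehicle libraries. These cells carried 3.20% and 8.73% of the class's UMIs with AT38, against 27.7% and 17.5% with vehicle. The summed level of the 6 dendritic cell markers was 171 and 113 CPM with AT38 and 977 and 1068 CPM with vehicle. Most of it was H2-Ab1, at 171 and 106 CPM with AT38 and 909 and 934 CPM with vehicle. Once the marker cells were left out, the sum was 159 and 124 CPM with AT38 and 66.7 and 151 CPM with vehicle. All 6 genes are among those that choose the marker cells, so this drop follows by construction. The AT38 results are given with and without the marker cells, and 334 cells remain without them. Such cells were not particular to this class. Of the 3116 other gated neutrophils, 320 met the same limit. They numbered 71 and 53 in the AT38 libraries and 73 and 123 in the vehicle libraries. Values of the other neutrophils without marker cells leave these out as well.

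Near the thresholds, 108 cells held exactly 1 Retnlg UMI, 114 held 2 to 4 and 129 held 5 or more, with a median of 3 and a highest value of 151. Just outside, 656 gated cells met every other criterion with 0 Retnlg UMIs, and 311 held Retnlg but also Il1a, 88 of them with exactly 1 Il1a UMI. The granule limit passed 4 cells with 2 UMIs and kept out 2 with 3, and the interferon limit passed 33 cells with 1 UMI and kept out 27 with 2. The other gated neutrophils were 1980 Il1a-positive cells, these 656, 369 above the interferon limit and 111 above the granule limit. The Retnlg-positive class was not the one with the highest Retnlg level. Retnlg averaged 3983 CPM in it, 397 CPM in Il1a-positive cells, 1063 CPM above the interferon limit and 12699 CPM above the granule limit. S100a8 averaged 43618 CPM in Retnlg-positive cells and 113620 CPM above the granule limit, and S100a9 47327 and 95891 CPM.

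Retnlg transcripts were far more frequent in gated neutrophils than in selected lymphocyte barcodes, which should lack them. The T and B cell barcodes were chosen on Cd3e or Cd79a and held no UMI of Csf3r, G0s2, Clec4d and Hdc. This choice leaves out lymphocyte barcodes that carry such neutrophil RNA, so their Retnlg share is not the full background. Of gated neutrophils, 22.3% and 25.0% held a Retnlg UMI with AT38, against 26.0% and 24.7% with vehicle, or 17.1% and 19.8% with AT38 and 17.96% and 18.8% with vehicle after thinning each cell to 1000 UMIs, which left out 23 to 72 shallower cells per library. T cell barcodes, deeper at a median of 5856 UMIs or more, held it in 1.08% and 1.09% with AT38 and 0.578% and 0.812% with vehicle. B cell barcodes held it in 1.19% and 0 of 137 (exact binomial upper limit 2.66%) with AT38 and 0.784% and 0.440% with vehicle. The neutrophil shares thus lay far above those of these selected lymphocyte barcodes in every library. Over all gated neutrophils the Retnlg level did not pass the edgeR quasi-likelihood test (log2 fold change −0.20 ± 0.20, SE, adjusted p = 0.776). It stood at −0.45 without vehicle 1 (adjusted p = 0.0110), which passed, and at 0.10 without vehicle 2 (adjusted p = 0.831).

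The share of Retnlg-positive cells among gated neutrophils did not pass the test between AT38 and vehicle. It was 8.62% (95% exact binomial interval 6.64 to 10.96%) and 10.1% (7.87 to 12.7%) with AT38, against 11.02% (8.96 to 13.4%) and 10.4% (8.77 to 12.1%) with vehicle. These intervals cover counting error only, and those of all 4 libraries overlapped, although both AT38 libraries lay below both vehicle libraries. The means were 9.37% ± 1.05 with AT38 and 10.7% ± 0.460 with vehicle (SD, n = 2 each), a log2 fold change of −0.19 ± 0.16 (edgeR over the 5 neutrophil classes, adjusted p = 0.336). The exact two-sided permutation p was 0.333, the smallest that 2 against 2 libraries can give. Of all kept barcodes the cells were 1.64% and 1.99% with AT38 and 3.03% and 2.72% with vehicle, which passed (−0.65 ± 0.17, adjusted p = 0.00520). Gated neutrophils as a whole were 19.1% and 19.7% of kept barcodes with AT38 and 27.5% and 26.3% with vehicle. Among the other classes of the gate, cells with neither Retnlg nor Il1a were a smaller share with AT38 (15.4% and 15.2%, against 19.7% and 22.1% with vehicle, log2 fold change −0.47, adjusted p = 0.0136). Cells above the interferon limit were a larger one (12.6% in each AT38 library, against 11.3% and 8.23% with vehicle, log2 fold change 0.43, adjusted p = 0.0449). Without vehicle 2 neither class passed (adjusted p = 0.0774 and 0.460), and without AT38 1 neither did (0.234 and 0.301), nor without AT38 2 (0.234 and 0.276).

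**Figure D1:**
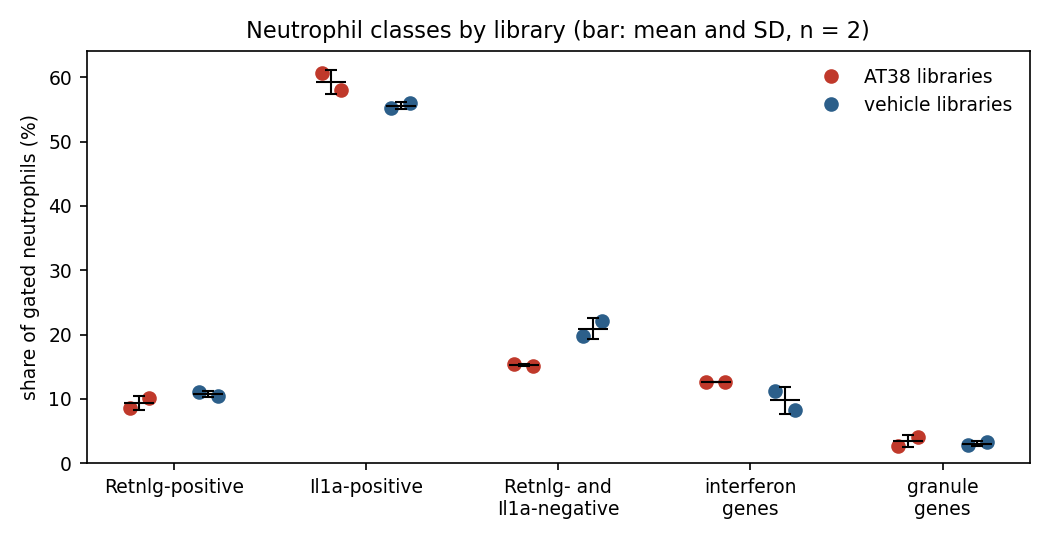
Share of gated neutrophils (%) in each of the 5 classes, with a point per library (red AT38, blue vehicle) and the mean and SD (n = 2) as black bars. Retnlg-positive cells make up 8.62 to 11.02% in all 4 libraries, and the class with neither gene is lower in both AT38 libraries.

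Set beside the other gated neutrophils, the Retnlg-positive cells had more transcripts of adhesion and trafficking genes such as Itgal and Cxcr2. They had fewer of most glycolysis genes, of most chemokines measured and of Siglecf and Vegfa. Lists of mature and of tumour neutrophil genes were mixed. The rule chose the cells by this contrast, so these are descriptions with no test, as the log2 ratio of CPM + 1 in each library. Of 2774 genes at 50 CPM or more, 577 were higher in all 4 libraries (20.8%) and 952 lower (34.3%), with a median ratio of −0.15. Past 1 log2 unit in all 4 libraries there were 25 higher (0.901%) and 94 lower (3.39%). The values below are in the order AT38 1, AT38 2, vehicle 1 and vehicle 2.

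Adhesion and trafficking genes were higher in all 4 libraries for 7 of 9 measured members of their list and lower for 0 (median log2 ratio 0.88). Cxcr2, the receptor for the chemokines CXCL1 and CXCL2, stood at 571, 544, 306 and 479 CPM in Retnlg-positive cells and at 196, 247, 182 and 215 CPM in the other neutrophils. Itgal, the alpha chain of the integrin LFA-1, stood at 486, 552, 531 and 472 CPM against 212, 198, 231 and 242 CPM. For both genes every library of the Retnlg-positive cells lay above every library of the others. Cxcr4, which retains neutrophils in the marrow, was also higher in all 4 libraries (median log2 ratio 0.88), as were Selplg (0.93) and Cd44 (0.71). Over the 5 classes, Cxcr2 averaged 475 CPM in Retnlg-positive cells, 294 in cells with neither gene, 280 above the interferon limit, 187 in Il1a-positive cells and 161 above the granule limit.

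Of 8 S100 and other calcium-binding proteins, 3 were higher in all 4 libraries and 3 lower, with a median ratio of −0.68. S100a6, S100a11 and Anxa2 were the higher ones, and S100a10 (−1.31), Anxa3 (−1.21) and Anxa5 (−1.24) the lower ones. S100a6 stood at 5795, 6872, 5548 and 5877 CPM in Retnlg-positive cells, against 1944, 2143, 2810 and 3099 CPM in the others, and S100a11 had a median log2 ratio of 1.26. Slpi, an inhibitor of neutrophil elastase, stood at 2489, 2487, 2641 and 2423 CPM against 610, 897, 1534 and 1274 CPM. The ranges of Slpi did not overlap, and the ratio was larger in the AT38 libraries. Late granule genes were mixed, with 6 of 11 higher and 4 lower. Pglyrp1, a bactericidal peptidoglycan-binding protein of granules, had a median log2 ratio of 1.25 and Mmp8, the neutrophil collagenase, of 0.74. Mmp9, the gelatinase, had −0.39 and Cd177, a neutrophil surface glycoprotein, −1.32. Mmp8 averaged 172 CPM here and 825 CPM in the class above the granule limit, which itself is chosen on granule genes.

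The genes with the highest median ratio and at least 50 CPM were led by Scnn1a, the alpha subunit of the epithelial sodium channel. It stood at 93.8, 60.5, 48.2 and 65.5 CPM in Retnlg-positive cells, against 11.7, 8.48, 11.6 and 17.7 CPM in the others (median log2 ratio 2.33). Rdh12, a retinol dehydrogenase, followed at 341, 197, 370 and 283 CPM against 38.2, 35.0, 143 and 83.4 CPM (2.10). Trpm2, a calcium channel opened by oxidative stress, had a ratio of 1.95, and Steap4, a metal reductase, 1.80. Further ones were Tmem71, Il15, Cd300lb, Klhl2, Abtb1, Pi16, Slc2a6, Lrg1, Ripor2 and Tmem156, with ratios of 1.75 to 1.48. Il15, a cytokine that sustains NK cells and CD8 T cells, stood at 222, 166, 121 and 110 CPM against 38.2, 53.5, 45.7 and 31.1 CPM. Leaving out the marker cells kept the ratios of these 14 genes between 1.44 and 2.24.

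Genes of the tumour neutrophil state were mixed, with 4 of 10 lower in all 4 libraries and 3 higher, a share lower near the 34.3% of all genes (median −0.73). Siglecf, a sialic acid-binding lectin, stood at 8.52, 7.56, 12.1 and 17.2 CPM in Retnlg-positive cells, against 192, 190, 92.9 and 129 CPM in the others. Vegfa, the angiogenic growth factor, stood at 256, 242, 189 and 217 CPM against 1121, 883, 680 and 678 CPM. Mif, a cytokine, had a median log2 ratio of −1.81 and Hilpda, a lipid droplet protein induced by hypoxia, −1.28. Those higher were Tnfrsf23, a decoy receptor (1.06), and the transcription factors Xbp1 (0.57) and Atf3 (0.21). Of 17 glycolysis and hypoxia genes, 12 were lower and 3 higher (median −0.52). Hk2, the hexokinase of the first step of glycolysis, stood at 59.7, 90.7, 76.4 and 75.8 CPM against 369, 388, 271 and 281 CPM, whereas Slc2a3, a glucose transporter, was higher (1.15). Of 12 chemokines and cytokines, 8 were lower and 2 higher (median −0.70). Ccl3, a macrophage-attracting chemokine, stood at 2830, 2102, 2915 and 2664 CPM against 7669, 6704, 6631 and 6333 CPM, and Tnf had a ratio of −1.58. The higher ones were Osm (0.79) and Il1f9 (0.59), and Il1b was mixed (−0.06).

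Survival genes were lower for 5 of 8 and higher for 0, among them the anti-apoptotic Bcl2a1a (−1.29), Bcl2a1b (−0.75) and Bcl2a1d (−1.24) and the pro-apoptotic Bax (−1.51). The Bcl2a1 genes are near-identical copies, so the counting may split reads between them. Transcription factors were higher for 7 of 9, by small amounts, led by Bach1, a repressor of NRF2 targets (0.79), and Hif1a (0.55). Ltc4s, the leukotriene C4 synthase, stood at 8.52, 15.1, 8.04 and 3.45 CPM in Retnlg-positive cells against 132, 110, 66.5 and 68.6 CPM in the others. Cybb, the catalytic chain of the NADPH oxidase, had a ratio of −2.46, which differed by class. It averaged 58.3 CPM in Retnlg-positive cells, 102 in cells with neither gene and 153 in Il1a-positive cells. Above the interferon limit it averaged 222 CPM, and above the granule limit 1134 CPM. In vehicle 1 it stood at 137 CPM in Retnlg-positive cells and at 123 CPM in cells with neither gene. Receptors of chemoattractants and microbial patterns were higher for 7 of 13 and lower for 1, Clec4e (−0.66). Among the 15 genes with the lowest ratio, several were at 0 in the Retnlg-positive cells of some libraries, where depth limits the ratio. Prss2, an acinar transcript, was at 0 in all 4 against 74.4, 105, 36.4 and 31.4 CPM. Rcan1, an inhibitor of calcineurin, stood at 17.1, 15.1, 20.1 and 3.45 CPM against 204, 209, 110 and 93.6 CPM.

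**Figure D2:**
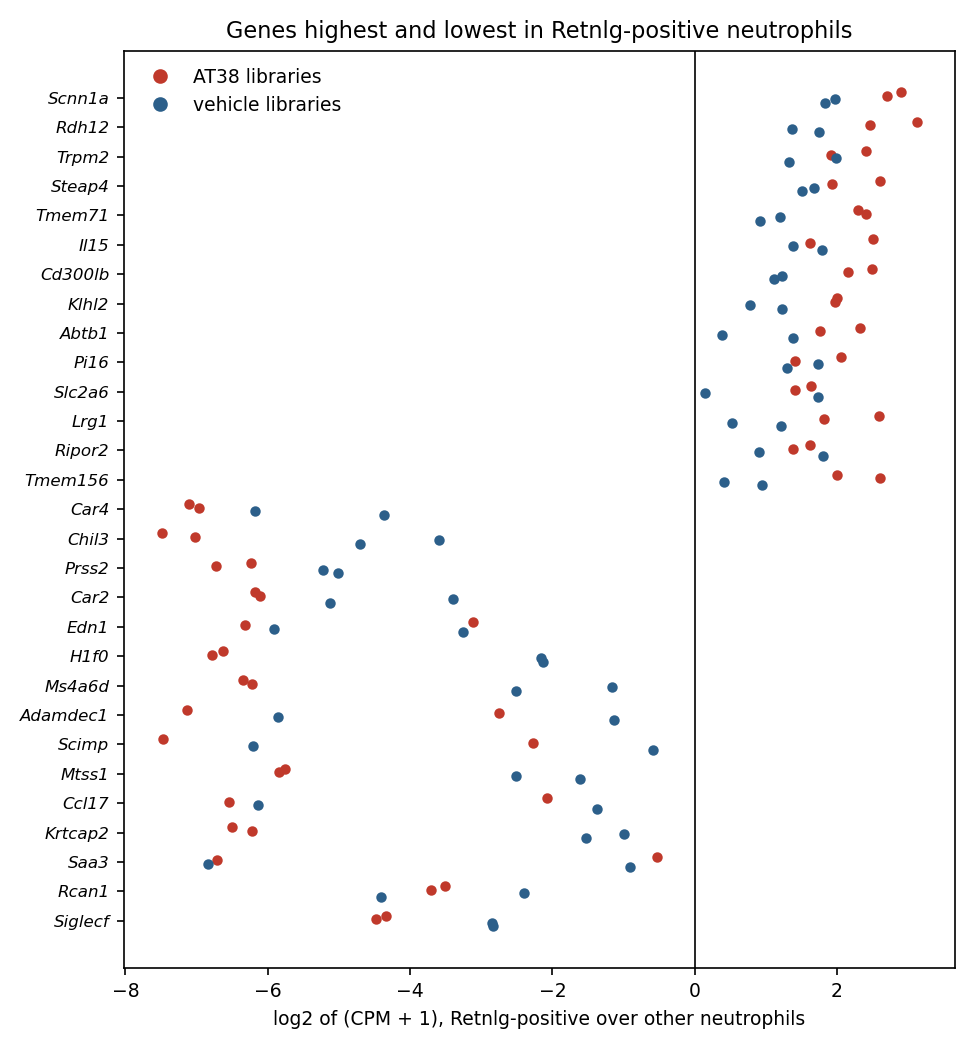
The 14 genes described as highest and the 15 lowest in Retnlg-positive over other gated neutrophils, as the log2 ratio of CPM + 1 in each library (red AT38, blue vehicle). The highest medians run up to 2.33 for Scnn1a, and Siglecf has −3.59. Ratios at the far left come from genes at or near 0 UMIs in the Retnlg-positive cells.

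Levels were also set out by the number of Retnlg UMIs among cells that met every other criterion, marker cells left out. Of 77 genes examined in this way, 18 were higher in each step of the summed libraries, 11 were lower in each step and 48 showed neither order. The 77 include the genes picked as highest and lowest against the other neutrophils, a contrast that holds the same cells with 0 Retnlg UMIs. No count over all genes is given, so these counts cannot show whether such an order is more frequent than among other genes. The genes given here were chosen after their values were seen, mostly for such an order. The 620 cells with 0 Retnlg UMIs, 102 with 1, 111 with 2 to 4 and 121 with 5 or more had median UMIs of 1746, 1628, 1794 and 2089, so the last group was also the deepest, and cells with more UMIs pass a UMI threshold more easily. S100a6 stood at 3472, 4948, 6073 and 8157 CPM in that order. Wfdc21, a secreted WAP-domain protein, stood at 263, 502, 696 and 1393 CPM, and Mmp8 at 36.3, 78.0, 107 and 350 CPM. These 3 genes were higher in each step of the summed libraries, and higher with 5 or more UMIs than with 0 in every library, while each step held in 3 libraries for S100a6 and Wfdc21 and in 1 for Mmp8. Ccl3 ran the other way with 6310, 4402, 2827 and 2238 CPM, as did Vegfa with 645, 290, 253 and 179 CPM and Ptgs2, the inducible cyclooxygenase, with 2968, 2636, 1455 and 1382 CPM. Each step down held in 4 libraries for Ccl3 and in 1 each for Vegfa and Ptgs2. Ptgs2 was higher with 5 or more UMIs than with 0 in vehicle 1 (1848 against 1689 CPM). Slpi showed no such order, with 1963, 3115, 2608 and 2737 CPM, nor did Cxcr2 with 335, 502, 477 and 592 CPM, Itgal with 334, 496, 628 and 510 CPM or Scnn1a with 24.8, 72.4, 82.7 and 70.8 CPM. These cells were grouped by a gene they share counts with, so no test was made.

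**Figure D3:**
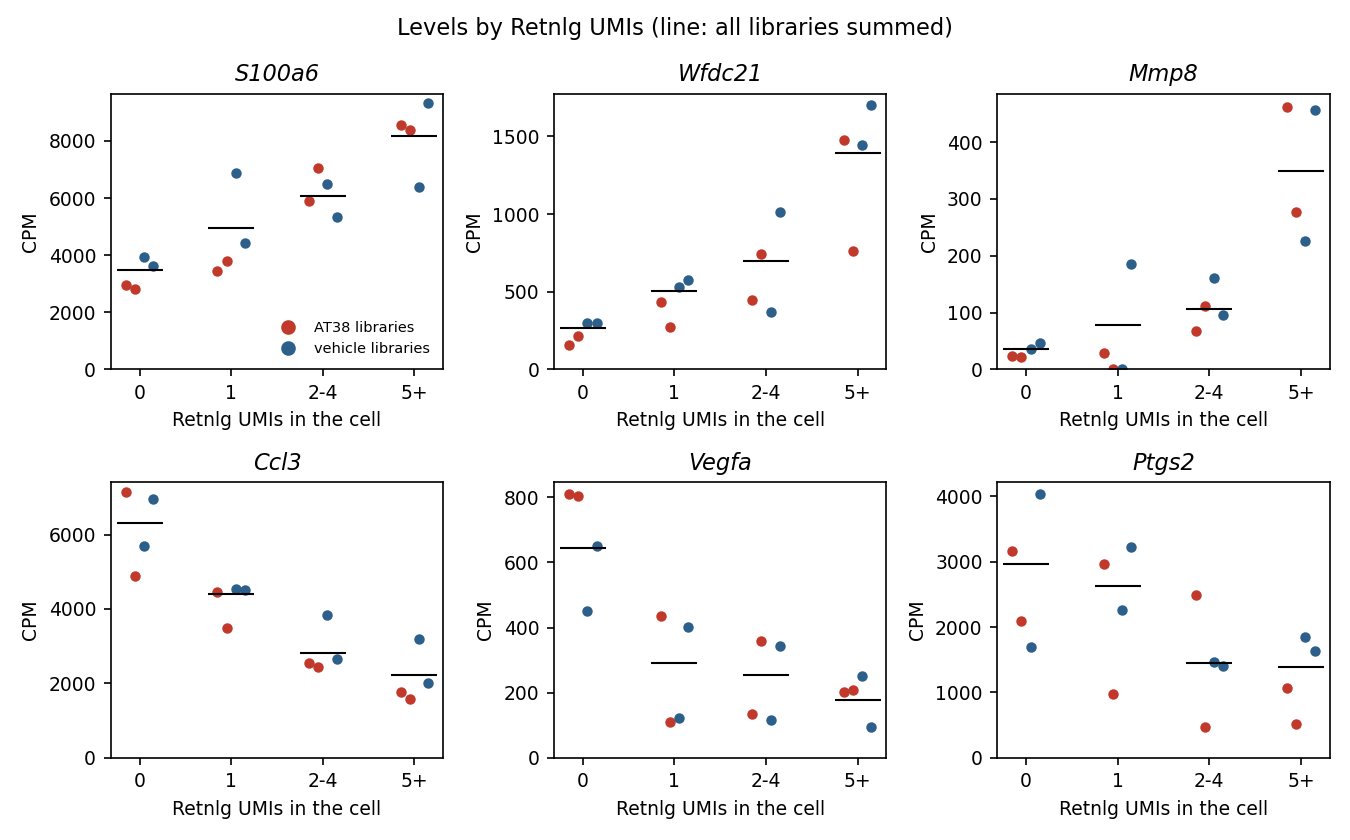
Levels (CPM) of S100a6, Wfdc21, Mmp8, Ccl3, Vegfa and Ptgs2 in cells with 0, 1, 2 to 4 and 5 or more Retnlg UMIs, marker cells left out. Points are libraries (red AT38, blue vehicle) and black lines the sum of all libraries. Wfdc21 reaches 1393 CPM and Vegfa drops to 179 CPM at 5 or more.

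AT38 was then compared with vehicle within the Retnlg-positive cells, and the smallest p-values lay in MHC class II genes carried by few cells. The edgeR quasi-likelihood test with Benjamini-Hochberg adjustment called 20 of 2292 genes (0.873%), 2 higher (0.0873%) and 18 lower (0.785%) with AT38, and 306 had an unadjusted p under 0.05. H2-Aa, a chain of the MHC class II molecule that presents antigen to CD4 T cells, stood at 68.2 and 113 CPM with AT38 and 1250 and 1203 CPM with vehicle (log2 fold change −3.72 ± 0.26, adjusted p = 2.24e-08). Cd74, its chaperone, stood at 145 and 227 CPM with AT38 and 1801 and 1527 CPM with vehicle (−3.13 ± 0.24, adjusted p = 5.19e-08). H2-Eb1 (−3.28) and H2-Ab1 (−2.73) were called as well. The 17 marker cells, 14 of them in vehicle libraries, carried 91.2% of the H2-Aa UMIs of the class and 91.4% of those of Cd74. H2-Aa, H2-Eb1, H2-Ab1 and Cd74 are themselves among the genes that choose the marker cells. Their levels are therefore lowered by construction when these cells are left out. Without them H2-Aa stood at 61.6 and 74.5 CPM with AT38 and 94.5 and 113 CPM with vehicle (−0.66 ± 0.44, adjusted p = 0.889), and H2-Ab1 turned to 0.27 (adjusted p = 0.975). The monocyte chemokine receptor Ccr2, at 0 and 7.56 CPM with AT38 and 60.3 and 96.5 CPM with vehicle (−4.09 ± 0.92, adjusted p = 0.0371), had 97.7% of its UMIs in marker cells. Ccr2 is also among the genes that choose those cells.

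**Figure D4:**
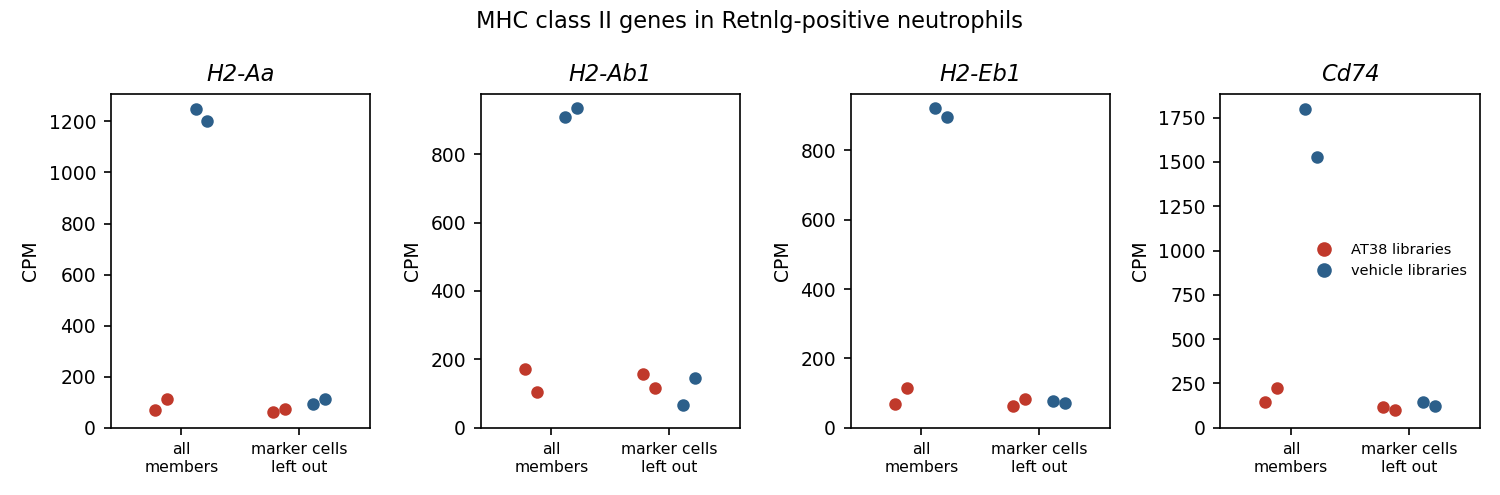
Levels (CPM) of H2-Aa, H2-Ab1, H2-Eb1 and Cd74 in Retnlg-positive neutrophils of each library (red AT38, blue vehicle), with all cells and with the marker cells left out. H2-Aa is at 1250 and 1203 CPM in the vehicle libraries with all cells, and at 94.5 and 113 CPM without the marker cells.

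Ribosomal protein genes, listed after the values were seen, followed the same course. With all cells 76 of 79 had a negative fold change and 3 were called lower, with a median of −0.53 against 0.02 over all genes tested, and without the marker cells 45 of 75 were positive and 0 called (edgeR, 1 at an unadjusted p under 0.05), with a median of 0.09. Of the other genes called lower with all cells, Tmsb10 (−1.88), Cst3 (−1.26) and Psap (−0.95) had positive values without the marker cells (0.50, 0.35 and 0.11, none called). Ptma, Rpsa, Rps26, Rack1, H2afz and Zfp36l2 stayed negative (−1.04 to −0.17) and were not called. Naaa and Serbp1 were too low to be tested. Without the marker cells 3 of 1852 genes were called (0.162%), 1 higher (0.0540%) and 2 lower (0.108%), and all 3 were among the 20. Leaving out 1 library changed the count with all cells to 13 (vehicle 1), 63 (vehicle 2), 69 (AT38 1) or 68 (AT38 2), and to 4, 6, 27 or 10 in that order when the marker cells were also left out.

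Wfdc17 fell with AT38, with and without the marker cells. It encodes a secreted WAP-domain protein of activated myeloid cells, and 74.4% of the Retnlg-positive cells held a UMI of it. It stood at 1585 and 2351 CPM with AT38 and 4101 and 4005 CPM with vehicle (log2 fold change −1.03 ± 0.19, adjusted p = 0.00748), and without the marker cells at 1638 and 2559 CPM with AT38 and 4959 and 4744 CPM with vehicle (−1.26 ± 0.18, adjusted p = 0.00135). The groups did not overlap, and the AT38 libraries differed from each other more than the vehicle libraries did. In the other neutrophils, without marker cells, it stood at 781 and 1150 CPM with AT38 and 1746 and 1638 CPM with vehicle (−0.93, adjusted p = 0.00947; with all cells −0.71, adjusted p = 0.181), and the difference between the effects did not pass (−0.43, adjusted p = 0.783). Leaving out any 1 library kept the call, with fold changes of −1.57 to −0.78.

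Srxn1 also fell. It encodes sulfiredoxin, which restores overoxidised peroxiredoxins and is a target of NRF2. It stood at 76.7 and 37.8 CPM with AT38 and 197 and 186 CPM with vehicle (log2 fold change −1.74 ± 0.41, adjusted p = 0.0493), and without the marker cells at 70.4 and 33.1 CPM with AT38 and 222 and 217 CPM with vehicle (−2.13 ± 0.42, adjusted p = 0.0319). The groups did not overlap, on 117 UMIs in all. Without AT38 2 the call was lost (−1.26, adjusted p = 0.182), and without vehicle 1 as well (−1.71, adjusted p = 0.0933), and DESeq2 did not make it (adjusted p = 0.837, or 0.890 without the marker cells). The other neutrophils, without marker cells, stood at 48.3 and 30.0 CPM with AT38 and 186 and 149 CPM with vehicle (−2.21, adjusted p = 5.31e-05).

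Ifi27l2a, an interferon-induced mitochondrial protein, was the 1 gene higher with AT38 both with and without the marker cells. It stood at 1091 and 1285 CPM with AT38 and 506.5 and 576 CPM with vehicle (log2 fold change 1.15 ± 0.19, adjusted p = 0.00354), and without the marker cells at 1127 and 1234 CPM with AT38 and 628 and 497 CPM with vehicle (1.03 ± 0.20, adjusted p = 0.0319). Both AT38 libraries lay above both vehicle libraries, and 37.3% of the cells held a UMI. The call was lost without vehicle 1 with all cells (1.04, adjusted p = 0.0589) and without vehicle 2 when the marker cells were also left out (0.85, adjusted p = 0.292). It was also lost with 2 or more Retnlg UMIs required (0.69, adjusted p = 0.133), with cells of 5 or more other-marker UMIs left out (0.95, adjusted p = 0.0767) and with DESeq2 without the marker cells (1.03, adjusted p = 0.499). In the other neutrophils, without marker cells, the level was 549 and 677 CPM with AT38 and 284 and 280 CPM with vehicle (1.00, adjusted p = 2.67e-04). Slfn4, an interferon-induced Schlafen protein, stood at 997 and 930 CPM with AT38 and 466 and 514 CPM with vehicle (0.99 ± 0.19, adjusted p = 0.0116). Without the marker cells it stood at 1004 and 928 CPM with AT38 and 628 and 606 CPM with vehicle, which did not pass (0.60 ± 0.20, adjusted p = 0.430). Without vehicle 1 it did not pass either (0.90, adjusted p = 0.135).

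The lists that hold these genes were counted, with medians beside those over all genes tested. Of 15 NRF2 targets tested, which serve glutathione, thioredoxin and iron handling, 1 was lower with AT38 (Srxn1, at a background of 0.785% lower) and 10 had negative values, with a median of −0.13 against 0.02 over all genes. Without the marker cells 1 of 14 was lower and 12 were negative, with a median of −0.38 against −0.0044. Gclm, a subunit of glutamate-cysteine ligase, stood at 8.52 and 15.1 CPM with AT38 and 76.4 and 72.4 CPM with vehicle, without overlap, and did not pass (−2.55 ± 0.70, adjusted p = 0.100). Slc7a11, the cystine transporter, stood at 3750 and 3220 CPM with AT38 and 3839 and 3871 CPM with vehicle (−0.13, adjusted p = 0.835). Hmox1, haem oxygenase, stood at 418 and 113 CPM with AT38 and 169 and 68.9 CPM with vehicle, and the groups overlapped. In the other neutrophils, which had more cells and so more genes tested, 10 of 18 were lower without marker cells, with a median of −0.58, and 9 of 19 with all cells. The background there was 2.66% called without marker cells, 0.540% higher and 2.12% lower, and 1.95% with all cells, 0.710% higher and 1.24% lower.

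Of 11 type I interferon response genes tested, 1 was higher (Slfn4, background 0.0873%) and 10 had positive values, with a median of 0.62. Without the marker cells 0 of 10 were called (edgeR, 4 at an unadjusted p under 0.05) and 9 were positive, with a median of 0.46. The rule itself limits Rsad2, Ifit1 and Ifit3, so cells with the strongest response are outside this class. Ifitm3, an antiviral membrane protein, stood at 980 and 1036 CPM with AT38 and 675 and 769 CPM with vehicle (0.50, adjusted p = 0.246). Both AT38 libraries lay above both vehicle libraries, and the gene did not pass.

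Chemokine and cytokine genes, 12 in all, had 0 called (edgeR, 4 at an unadjusted p under 0.05), 8 negative values and a median of −0.17, or 9 negative and −0.46 without the marker cells. Cxcl1, a neutrophil-attracting chemokine, stood at 85.2 and 15.1 CPM with AT38 and 181 and 128 CPM with vehicle (−1.63, adjusted p = 0.167), and Csf1, a macrophage growth factor, at 307 and 446 CPM with AT38 and 193 and 203 CPM with vehicle (0.94, adjusted p = 0.100). Il1b, the inflammasome-released cytokine, stood at 12767 and 10576 CPM with AT38 and 9403 and 12415 CPM with vehicle, and the groups overlapped (0.12, adjusted p = 0.852). Of 17 glycolysis and hypoxia genes 0 were called (4 at an unadjusted p under 0.05), with 12 negative and a median of −0.24. Ero1l, an oxidase of the endoplasmic reticulum, had the smallest p of them, at 119 and 98.3 CPM with AT38 and 197 and 265 CPM with vehicle (−1.08, adjusted p = 0.141). Late granule genes had 0 of 11 called (2 at an unadjusted p under 0.05) and a median of −0.18. Adhesion and trafficking genes had 0 of 9 called (2 at an unadjusted p under 0.05) and a median of 0.15. Cxcr2 stood at 571 and 544 CPM with AT38 and 306 and 479 CPM with vehicle (0.52, adjusted p = 0.353). The 12 other lists had 0 genes called by edgeR with all cells, and 0 to 4 at an unadjusted p under 0.05. Sod2, the mitochondrial superoxide dismutase, stood at 76.7 and 68.0 CPM with AT38 and 217 and 159 CPM with vehicle, without overlap (−1.35 ± 0.38, adjusted p = 0.100). Arg2, an arginase, stood at 537 and 348 CPM with AT38 and 422 and 503 CPM with vehicle (−0.06, adjusted p = 0.959). Nos2, the inducible nitric oxide synthase, was at 0 in both AT38 libraries and at 4.02 and 0 CPM with vehicle. The heat shock gene Hspa1b stood at 3903 CPM in AT38 1 and 75.6 CPM in AT38 2, against 900.5 and 514 CPM with vehicle (1.53, adjusted p = 0.849).

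**Figure D5:**
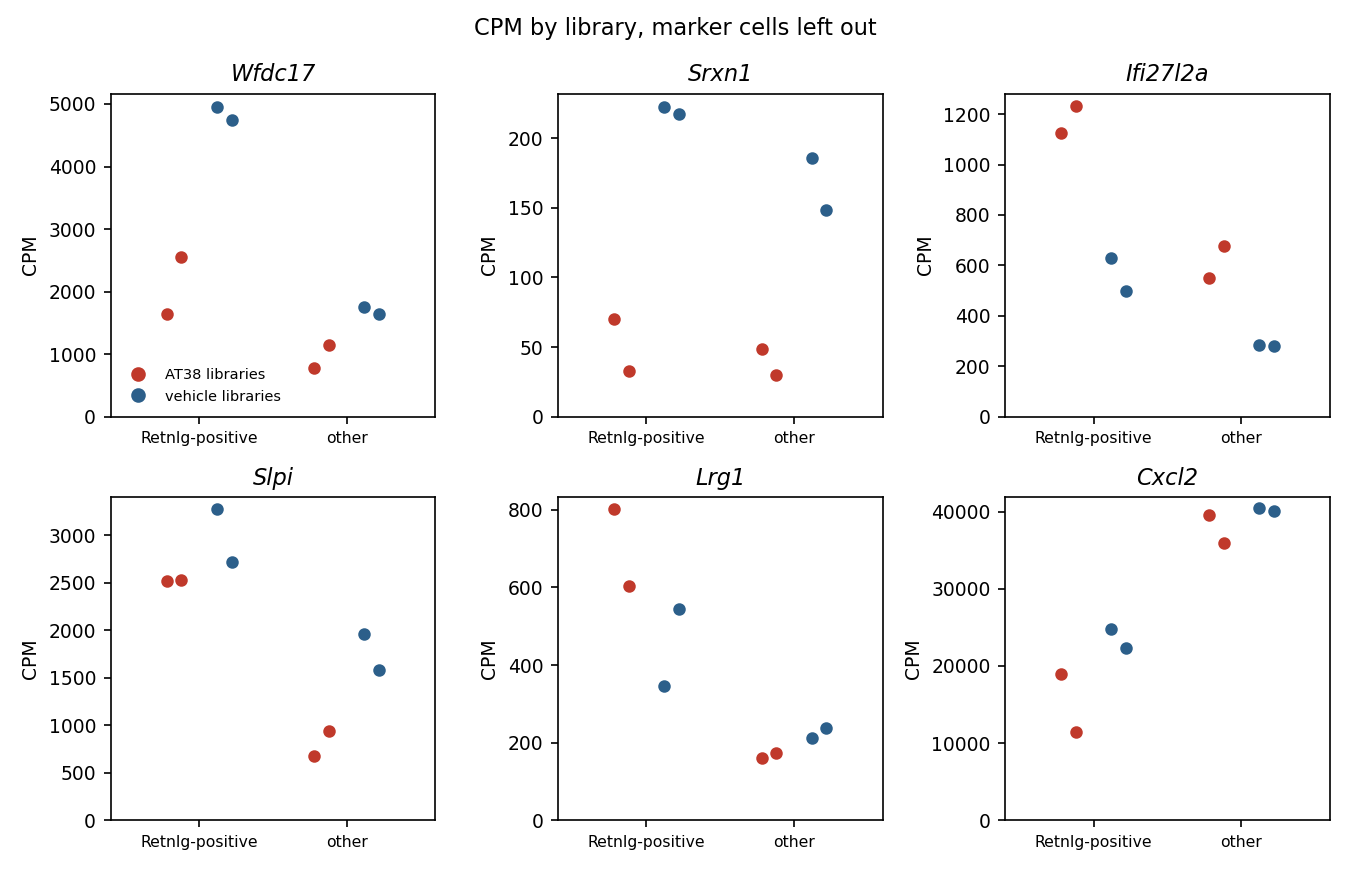
Levels (CPM) of Wfdc17, Srxn1, Ifi27l2a, Slpi, Lrg1 and Cxcl2 in Retnlg-positive and other gated neutrophils, marker cells left out, with a point per library (red AT38, blue vehicle). In Retnlg-positive cells Slpi is at 2518 and 2526 CPM with AT38 beside 3275 and 2717 CPM with vehicle, while in the other neutrophils it is at 678 and 939 CPM with AT38 beside 1963 and 1577 CPM with vehicle.

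Whether AT38 acted differently in Retnlg-positive and in other neutrophils was tested as an interaction with a term for each library, since both classes come from the same libraries. It called 57 of 7297 genes (0.781%), 11 with a more positive effect in Retnlg-positive cells (0.151%) and 46 with a more negative one (0.630%). The median over all genes tested was −0.20. Without the marker cells it called 3 of 6045 (0.0496%), 2 more positive (0.0331%) and 1 more negative (0.0165%), with a median of −0.07, and Slpi and Lrg1 were called in both. With all cells, H2-Aa, H2-Eb1, Cd74 and H2-Ab1 led the calls. The count was 14 without vehicle 1 and 34 without AT38 1.

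Slpi did not pass the test in Retnlg-positive cells and fell with AT38 in the other neutrophils once the marker cells were left out. In Retnlg-positive cells it stood at 2489 and 2487 CPM with AT38 and 2641 and 2423 CPM with vehicle (log2 fold change −0.01 ± 0.17, adjusted p = 0.988), and without the marker cells at 2518 and 2526 CPM with AT38 and 3275 and 2717 CPM with vehicle (−0.29, adjusted p = 0.820). In the other neutrophils, without marker cells, it stood at 678 and 939 CPM with AT38 and 1963 and 1577 CPM with vehicle (−1.25 ± 0.15, adjusted p = 0.00218), and with all cells it did not pass (−0.94, adjusted p = 0.205). The difference of the effects was 0.95 ± 0.18 (adjusted p = 6.17e-05) with all cells and 0.87 ± 0.16 (adjusted p = 2.82e-04) without the marker cells. With all cells it was not called without vehicle 1 (0.88, adjusted p = 0.129), without AT38 1 (0.63, adjusted p = 0.175) or after thinning to 1000 UMIs (0.75, adjusted p = 0.138). Without the marker cells it was not called without vehicle 1 (adjusted p = 0.711), vehicle 2 (0.216) or AT38 1 (0.162).

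Lrg1, a leucine-rich glycoprotein stored in neutrophil granules, stood at 801 and 552 CPM with AT38 and 269 and 479 CPM with vehicle in Retnlg-positive cells (0.86 ± 0.29, adjusted p = 0.225). In the other neutrophils, without marker cells, it stood at 161 and 173 CPM with AT38 and 212 and 239 CPM with vehicle (−0.56 ± 0.11, adjusted p = 0.0173). AT38 thus lay above vehicle in the Retnlg-positive cells, which did not pass, and below it in the others, which passed. The difference of the effects was 1.38 ± 0.26 (adjusted p = 5.86e-05), and 1.07 ± 0.25 without the marker cells (adjusted p = 0.0318). It was not called after thinning (0.78, adjusted p = 0.934), against cells with neither Retnlg nor Il1a alone (0.80, adjusted p = 0.377), without vehicle 1 (1.07, adjusted p = 0.249) or without AT38 1 (0.94, adjusted p = 0.225). Cxcl2, a neutrophil-attracting chemokine, was not called with all cells and was called without the marker cells. It then stood at 18938 and 11479 CPM with AT38 and 24774 and 22294 CPM with vehicle in Retnlg-positive cells (−0.67, adjusted p = 0.572), and at 39599 and 35914 CPM with AT38 and 40455 and 40127 CPM with vehicle in the others (−0.21, adjusted p = 0.228). The difference was −0.60 ± 0.11 (adjusted p = 2.82e-04), with all cells −0.36 (adjusted p = 0.280), and without AT38 2, where Cxcl2 was lowest, −0.30 (marker cells left out, adjusted p = 0.681). It was also not called without vehicle 1 (−0.53, adjusted p = 0.860) or vehicle 2 (−0.68, adjusted p = 0.0996), and was called without AT38 1 (−0.92, adjusted p = 9.34e-09).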

How the data were processed

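UMI counts per gene and cell barcode in 4 libraries (2 AT38, 2 vehicle) were deposited by the authors, made with Cell Ranger 3.1.0 against mm10 per the submitters' processing notes. Which gene annotation the counting used is not given in the sources used here. Libraries used the 10x Chromium 3.1 chemistry per the labels' protocols and held 24294215 to 34386076 UMIs. Of 18001 barcodes 876 had fewer than 200 genes and 3142 more than 10% mitochondrial UMIs, some both.

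UMIs were summed per library over each class and tested in R 4.3.3 with the edgeR 4.0.16 quasi-likelihood test (TMM, filterByExpr, robust, two-sided, Benjamini-Hochberg over all genes tested, threshold 0.05). Printed errors of log2 fold changes are standard errors, taken as the size of the log2 fold change over the square root of the F statistic. The interaction fit has library terms, and the class share test offsets the log of gated neutrophils. Per-library ratios use log2 of CPM + 1. DESeq2 1.42.0, other gates and thresholds and each library left out were tried. Doublets were treated by the gate alone, with scanpy 1.11.5 scrublet scores as an alternative (9 of the 351 cells scored high). Leaving out marker cells (10 or more UMIs of B, T, macrophage, monocyte, dendritic, eosinophil, mast, epithelial and platelet markers, Cd74, H2-Aa, H2-Eb1, Nkg7 and Gzmb) was added after the data were seen. The eosinophil markers include Siglecf, so a neutrophil's own Siglecf UMIs count towards this limit. In the other neutrophils of AT38 1, AT38 2, vehicle 1 and vehicle 2 the eosinophil list summed to 195, 193, 99.3 and 133 CPM. Siglecf alone stood there at 192, 190, 92.9 and 129 CPM. Its part in choosing the marker cells was not tested. On simulated data the test in Retnlg-positive cells recovered 30% of planted log2 changes of 1 and 85% of those of 2 (2299 genes). The interaction recovered 25% and 83%. The simulation used the real mean levels and library sizes, with the same preset spread for every gene. That spread was not estimated from these data, and uneven marker cells were not simulated, so recovery in the real data was not measured.

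The cells, lists and tests were chosen with earlier results of these data known. Named genes were the 10 largest rises and 10 largest falls called with a mean of 10 CPM or more and no overlap of the groups, up to 4 genes with the smallest p of each of 18 lists, a fixed set that includes Retnlg, Slpi, Srxn1, Gclm and Slc7a11, the 10 interaction genes with the smallest p, and the 15 highest and 15 lowest genes against the other neutrophils at 50 CPM or more. Genes named outside these, from the lists and from calls without the marker cells, were chosen after their values were seen, and a few genes that the rule names are not reported here. Of 31053 gene IDs 30934 matched GENCODE M21.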

Additional observations from a re-analysis of the deposited data

Results flagged for a closer look

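The 10 genes with the smallest p for a different AT38 effect in Retnlg-positive and other neutrophils were all called with all cells. Values are log2 differences of the edgeR interaction, Retnlg-positive minus other. With all cells it was −3.55 for H2-Aa, −3.06 for H2-Eb1, −3.00 for Cd74, −2.60 for H2-Ab1, −1.78 for Tmsb10, −1.58 for Cst3, −2.73 for Mt1 and −2.35 for Irf8, each with the vehicle marker cells in the class. It was 0.95 for Slpi and 1.38 for Lrg1. With the marker cells left out 3 genes were called, with 0.87 for Slpi, −0.60 for Cxcl2 and 1.07 for Lrg1. Of the 10 genes, only Slpi and Lrg1 were thus still called. H2-Aa then stood at −0.81, H2-Eb1 at −0.11, Cd74 at −0.62, H2-Ab1 at 0.26 and Tmsb10 at 0.28. The MHC class II genes and Cd74 are among the genes that choose those cells. The part of the 17 marker cells in these differences beyond leaving them out was not tested.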

How the results depend on the processing

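Wfdc17 kept its direction and call in all alternatives but the replicate block with marker cells left out. The number of genes changed with AT38 in Retnlg-positive cells, 20 as reported, was 60 with no filter on low counts, 60 with the replicate block, 72 with at most 5% mitochondrial UMIs, 13 after thinning to 1000 UMIs, 10 with high doublet scores removed, 8 with DESeq2, 3 without marker cells and 1 with cells of 5 or more such UMIs left out. Leaving out each library gave 4 to 69. Without marker cells, DESeq2 called 1 (30 at an unadjusted p under 0.05) and the edgeR fit with the replicate block 0, Ifi27l2a (adjusted p = 0.643), Srxn1 and Wfdc17 included (103 at an unadjusted p under 0.05). Same-numbered libraries did not deviate together (correlation −0.043 over 2299 genes). With 2 libraries per group and few cells in each, this cannot decide whether the numbers pair the samples. The labels state no pairing.

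The 57 interaction genes became 34 with high doublet scores removed, 25 against cells with neither Retnlg nor Il1a, 1 after thinning, and 3 with cells of 10 or of 5 or more other-marker UMIs left out. Leaving out each library gave 0 to 52, the 0 being edgeR without vehicle 2 and marker cells (240 at an unadjusted p under 0.05). The log2 fold change with AT38 of the share of Retnlg-positive cells was −0.19 among gated neutrophils and −0.65 among kept barcodes. The Retnlg level over gated neutrophils (−0.20) ran from −0.45 to 0.10 with each library left out and was 0.093 with cells of 5 or more other-marker UMIs left out.

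Single genes that turned were mostly those with UMIs in marker cells, and H2-Ab1 is among the genes that choose those cells. H2-Ab1 stood at 0.27, 0.083, 0.31 and 0.31 (10 or more UMIs left out, 5 or more, replicate block and DESeq2 with 10 or more left out), Tmsb10 at 0.50, 0.83, 0.50 and 0.50, Cst3 at 0.35, 0.38, 0.33 and 0.36, and Psap at 0.11, 0.13, 0.11 and 0.12, and at 0.20 after thinning. Rack1 was 0.059 after thinning. Slpi, near 0 in Retnlg-positive cells, was 0.0013 at 5% mitochondrial UMIs and 0.075 with 2 or more Retnlg UMIs. The interaction was 0.26 and 0.029 for H2-Ab1 and 0.28 and 0.56 for Tmsb10 (10 and 5 or more left out), and 0.0033 for Cst3 (5 or more). With each library left out, with or without marker cells, the ranges were −3.68 to 0.088 for H2-Eb1, −3.11 to 0.97 for H2-Ab1, −2.27 to 0.58 for Tmsb10, −1.39 to 0.64 for Cst3, −1.12 to 0.24 for Psap, −1.42 to 0.36 for Rack1, −0.43 to 0.034 for Slpi and −0.53 to 0.0087 for Slc7a11. Those of the interaction were −3.64 to 0.29 for H2-Eb1, −2.96 to 0.95 for H2-Ab1, −2.20 to 0.39 for Tmsb10, −1.75 to 0.26 for Cst3, −4.91 to 0.44 for Mt1 and −6.12 to 4.20 for Irf8. Of 622 values for 34 gene results, 355 kept direction and side of the threshold, 206 lost the call, 6 gained it and 55 turned, and the cause was not tested. A library left out leaves 1 pool in its group, which is then assumed to vary like the other group. The Retnlg-positive cells held 117334 to 290128 UMIs per library, which limits the test to 2292 genes.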
